A study of Mus musculus with 8 samples.

Results

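The genes described here are 44 cell cycle and DNA replication genes of the mouse, read in RAW264.7 cells on 8 two-colour arrays. They are 20 genes of the G1/S transition and of DNA synthesis (G1/S genes), 5 G1 cyclins and inhibitors of cyclin-dependent kinases, and 19 genes of mitosis and of the approach to it (G2/M genes). They were chosen by name, and each is represented by its brightest probe on the array. All 44 are on the array, with 71 probes, and 43 of them entered the fit of 14805 genes. The exception was Rrm2, whose single probe was flagged as an outlier by the scanner software on 1 array.

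RAW264.7 is a macrophage-like line of BALB/c origin that arose from a tumour induced by Abelson leukaemia virus, so its cells divide in culture, unlike most macrophages of tissues. Cells received Lactobacillus acidophilus MTCC-10307 for 1, 2, 4 or 6 h, or Bacillus clausii MTCC-8326 for the same times, each at 100 bacteria per cell and in medium with serum and no antibiotic. The cells set against them were untreated cells of the same line, matched in time. For each condition, equal parts of RNA from 3 cultures made 1 pool, treated RNA carried Cy5 and untreated RNA Cy3 on every array, and no array exchanged the dyes. Each bacterium and time thus has 1 array. Standard errors and p-values come from the spread between arrays that is left after a model with bacterium and time as terms. A change over time that both slides share is not part of that spread. Dye effects of single genes cannot be told apart from the treatment. The 4 arrays of a bacterium lie on 1 slide, so slide and bacterium cannot be told apart either. The labels leave unsaid whether both slides carried the same untreated pools and whether the bacteria were alive.

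A dividing cell passes from G1 through DNA synthesis to mitosis. D-type cyclins with Cdk4 or Cdk6 and E-type cyclins with Cdk2 phosphorylate the retinoblastoma protein, which releases E2F factors that switch on genes of DNA replication, and the inhibitors p21 (Cdkn1a) and p27 (Cdkn1b) hold these kinases back. Later in the cycle a second wave of genes, bound by the DREAM and B-Myb complexes at CHR elements and by NF-Y at CCAAT elements, supplies the cyclins, kinases and spindle proteins of mitosis. In macrophages, growth factor signals drive proliferation, while bacterial products are known to slow it in cultured lines.

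The arrays detected these genes well. The mean log2 brightness of the 43 fitted genes had a median of 12.2, against 8.44 over all genes, and 41 of the 43 lay above that median. Between 39.6% and 51.5% of probes were well above background in treated channels, against 42.2% to 47.4% in untreated channels, and no spot was saturated. Of 10 macrophage markers, 8 were detected on all 8 arrays (Adgre1, Cd68, Csf1r, Lyz2, Ptprc, Cd14, Fcgr1 and Spi1), Itgam on 6 and Mrc1 on none, and 0 of 3 epithelial markers was detected on any array. Of the T cell markers, Cd3e was detected on 7 arrays, Cd4 on 6, Cd3d on 4 and Cd8a on 2. Cd79a was detected on 4 and Col1a2 on 5, and their part in the results was not tested.

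**Figure D1:**
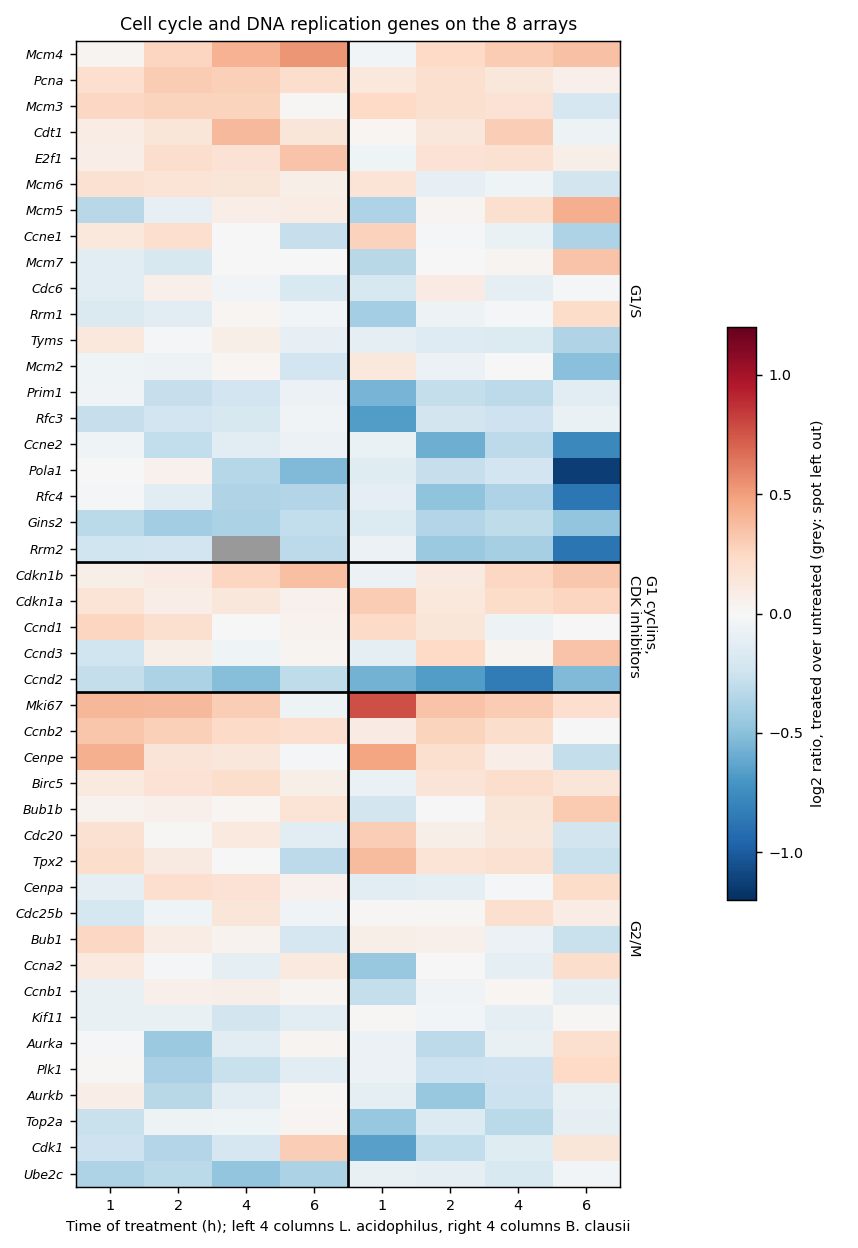
Log2 ratio of treated over untreated cells for the 44 genes (rows, in 3 groups by role) on the 8 arrays (columns, 4 times for each bacterium), red for higher and blue for lower in treated cells. Most cells of the map are pale, Ccnd2 and Gins2 are blue on all 8 arrays, and the darkest blue is Pola1 after 6 h of B. clausii at -1.13.

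Changes in these genes were small. After L. acidophilus, 12 of the 43 genes rose and 8 fell over the 4 times (limma, adjusted p under 0.05), which is 46.5%, against 42.2% of all genes called in that comparison. After B. clausii, 7 rose and 11 fell, which is 41.9%, against 44.2% of all genes. Both shares lie near the background, so they are not a result about these genes. Without the 2 h array of L. acidophilus 10 were called with that bacterium, and without its 4 h array 9, with the shares of all genes not given for these fits. Median log2 ratios were -0.0022 after L. acidophilus and -0.051 after B. clausii, against 0.016 and 0.0075 over all genes. The typical size of a mean log2 ratio was 0.13 after L. acidophilus, against 0.11 over all genes, and 0.11 after B. clausii, against 0.12 over all genes. Only Pola1 passed 2-fold on any array, while 1.63% of all genes did so. RNA of whole cultures was measured, so fewer cells in a phase and less RNA per cell cannot be told apart.

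These splits into higher and lower depend on how ratios were centred. With median centring in place of loess, 4 members were called higher and 18 lower after L. acidophilus, against 9.04% and 30.4% of all genes. After B. clausii 0 were called higher and 40 lower, against 5.68% and 58.5% of all genes. That setting left the median of all genes at -0.46 on the 1 h array of B. clausii and -0.25 on its 2 h array, against 0.0007 and 0.011 with loess. With the scanner software's processed signals, 5 were called higher and 7 lower after L. acidophilus, against 17.8% and 14.3% of all genes, and 6 higher and 11 lower after B. clausii, against 24.6% and 18.9%.

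Among the G1 cyclins and kinase inhibitors, Ccnd2 fell after both bacteria, Cdkn1b rose after both, and Ccnd1 rose after L. acidophilus while Cdkn1a and Ccnd3 rose after B. clausii. With median centring 0 of the 5 were called higher and 4 lower after B. clausii.

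Ccnd2 encodes cyclin D2, a D-type cyclin whose level follows growth factor signals. Its probe lies at chr6:127089187-127089246 (mm9, the build of the file headers). Its log2 level in cells treated with L. acidophilus was 9.71, 9.53, 9.42 and 9.64 at 1, 2, 4 and 6 h, against 9.99, 9.90, 9.93 and 9.94 in untreated cells on the same arrays. In cells treated with B. clausii the log2 level was 9.36, 9.19, 8.92 and 9.57 at the 4 times, against 9.92, 9.87, 9.77 and 10.09 in untreated cells. Treated cells lay below untreated cells on all 8 arrays, and the levels of the groups did not overlap on either slide. The mean log2 ratio was -0.37 ± 0.039 after L. acidophilus (limma, adjusted p = 0.000319) and -0.65 ± 0.039 after B. clausii (adjusted p = 1.57e-05), or 0.774 and 0.636 of the untreated level. Ccnd2 stayed called lower after each bacterium in all 24 alternatives. Its 2 other probes gave mean log2 ratios of -0.17 and -0.044 after L. acidophilus, and of -0.55 and -0.42 after B. clausii.

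Ccnd1, cyclin D1, had log2 ratios of 0.26, 0.19, 0.00010 and 0.041 at 1, 2, 4 and 6 h of L. acidophilus. On the B. clausii arrays they were 0.23, 0.15, -0.057 and -0.0033. The ratios were highest at the first times on both slides. Its mean rose by 0.12 ± 0.038 after L. acidophilus (limma, adjusted p = 0.0306), a call that ended in 12 of 24 alternatives and turned to -0.045 with median centring. After B. clausii its mean was 0.080 ± 0.038 and did not pass (limma, adjusted p = 0.119). The 10 replicate spots of the Ccnd1 probe had an SD of 0.086 to 0.22 within an array.

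Ccnd3, cyclin D3, had log2 ratios of -0.24, 0.074, -0.049 and 0.028 at the 4 times of L. acidophilus and of -0.10, 0.24, 0.029 and 0.35 at those of B. clausii. The sign differed between times on both slides. Its mean rose by 0.13 ± 0.043 after B. clausii (limma, adjusted p = 0.04) and was -0.046 ± 0.043 after L. acidophilus. The rise ended in 15 of 24 alternatives and turned to -0.33 with median centring.

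Cdkn1a encodes p21, a kinase inhibitor and a target of p53. It had log2 ratios of 0.16, 0.076, 0.14 and 0.047 at 1, 2, 4 and 6 h of L. acidophilus, and of 0.30, 0.12, 0.22 and 0.25 on the B. clausii arrays. All 8 were above 0, with the highest at 1 h of B. clausii. The mean rose by 0.22 ± 0.041 after B. clausii (limma, adjusted p = 0.00236), a value of -0.24 with median centring, and was 0.11 ± 0.041 after L. acidophilus (adjusted p = 0.065).

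Cdkn1b encodes p27, an inhibitor of Cdk2 that is high in resting cells. Its log2 ratios were 0.075, 0.10, 0.25 and 0.36 at 1, 2, 4 and 6 h of L. acidophilus and -0.070, 0.11, 0.24 and 0.32 at those of B. clausii. They were higher at each later time on both slides. The mean rose by 0.20 ± 0.041 after L. acidophilus (limma, adjusted p = 0.00538) and by 0.15 ± 0.041 after B. clausii (adjusted p = 0.0154), a value of -0.043 with median centring. The first call ended in 4 of 24 alternatives, and the second in 8 besides that one. Its probe was the dimmest of the 43, and a second probe, dimmer still, gave mean log2 ratios of -0.025 and -0.068.

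**Figure D2:**
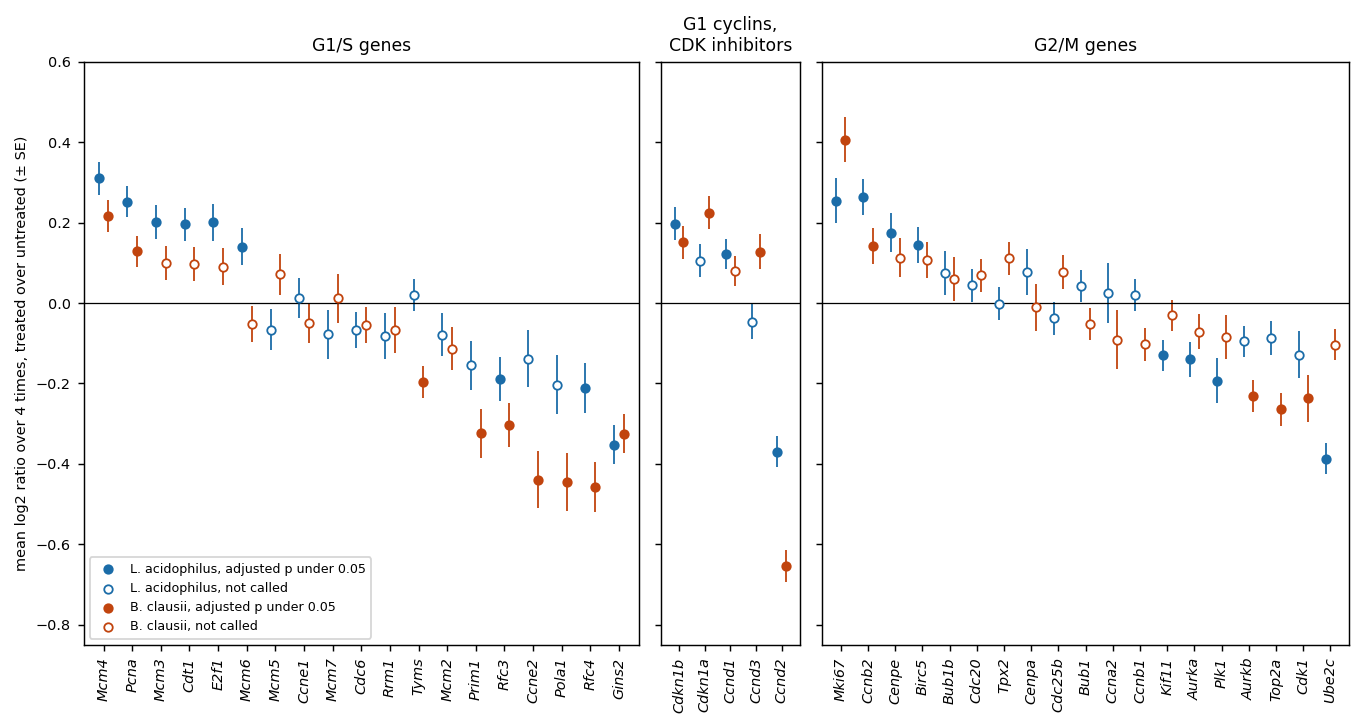
Mean log2 ratio of treated over untreated cells across the 4 times, with its standard error from the limma fit (vertical lines), for each of the 43 fitted genes after L. acidophilus (blue) and B. clausii (red); filled points passed an adjusted p of 0.05. Means run between -0.65 and 0.41, and filled points lie on both sides of 0 in every group, while with median centring 0 are called higher after B. clausii.

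With loess the G1/S genes were split. Of 19 fitted, 6 rose and 3 fell after L. acidophilus, with a median log2 ratio of -0.067, and 2 rose and 7 fell after B. clausii, with a median of -0.054. Background shares for these calls were 23.7% higher and 18.5% lower among all genes after L. acidophilus, and 23.1% and 21.1% after B. clausii. With processed signals 2 were called higher and 3 lower after L. acidophilus, against 17.8% and 14.3% of all genes. After B. clausii the counts were 0 and 7, against 24.6% and 18.9%. With median centring they were 2 and 8 after L. acidophilus, against 9.04% and 30.4%. After B. clausii they were 0 and 18, against 5.68% and 58.5%. The split after B. clausii thus depends on the scaling.

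Helicase and licensing genes were split. The Mcm2 to Mcm7 proteins form the replicative helicase, Cdc6 and Cdt1 load it at origins, and Gins2 is a subunit of the GINS complex that activates it. Mcm4 had log2 ratios of 0.037, 0.26, 0.42 and 0.53 at 1, 2, 4 and 6 h of L. acidophilus and of -0.036, 0.24, 0.30 and 0.35 at those of B. clausii. It was near 0 at 1 h and higher at each later time on both slides. Its mean rose by 0.31 ± 0.041 after L. acidophilus (limma, adjusted p = 0.000742) and by 0.22 ± 0.041 after B. clausii (adjusted p = 0.00279). With processed signals both calls ended, at 0.089 after L. acidophilus (limma, adjusted p = 0.0971) and 0.026 after B. clausii (adjusted p = 0.534), and the B. clausii value was -0.14 with median centring. Mcm5 had log2 ratios of -0.33, -0.099, 0.079 and 0.086 after L. acidophilus and of -0.37, 0.033, 0.19 and 0.43 after B. clausii. Its 1 h values were the lowest of each slide, and neither mean passed the test. Mcm2 had log2 ratios of -0.050, -0.064, 0.028 and -0.23 after L. acidophilus and of 0.12, -0.068, -0.0090 and -0.50 after B. clausii, and neither mean passed. Mcm3 and Mcm6 rose after L. acidophilus with mean log2 ratios of 0.20 and 0.14, and Mcm7 passed with neither bacterium. With processed signals the log2 ratios of Mcm6 lay between -0.032 and 0.0023 on the L. acidophilus arrays. On the B. clausii arrays they lay between -0.27 and -0.24. The rise of Mcm6 thus depends on the scaling. A second, well-measured probe of Mcm3 gave -0.17 in place of 0.20, so its direction is uncertain.

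Gins2 fell with both bacteria. The log2 ratios were -0.32, -0.42, -0.38 and -0.29 at 1, 2, 4 and 6 h of L. acidophilus, and -0.17, -0.35, -0.31 and -0.48 at those of B. clausii. All 8 were below 0, and the lowest was at 6 h of B. clausii. The mean was -0.35 ± 0.048 after L. acidophilus (limma, adjusted p = 0.00093) and -0.33 ± 0.048 after B. clausii (adjusted p = 0.000896), and both calls held in all 24 alternatives. Of the loading factors, Cdt1 rose after L. acidophilus with a mean of 0.20 and was 0.097 after B. clausii without passing. Cdc6 had log2 ratios of -0.12, 0.065, -0.029 and -0.18 after L. acidophilus and of -0.20, 0.098, -0.10 and -0.013 after B. clausii, which straddle 0 on both slides, and neither mean passed.

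Genes of the primase, the clamp and its loader also went both ways. Pcna is the sliding clamp that holds DNA polymerases on their template. Its log2 ratios were 0.20, 0.30, 0.29 and 0.21 at 1, 2, 4 and 6 h of L. acidophilus and 0.13, 0.19, 0.14 and 0.062 at those of B. clausii, all above 0. The mean rose by 0.25 ± 0.039 after L. acidophilus (limma, adjusted p = 0.00151) and by 0.13 ± 0.039 after B. clausii (adjusted p = 0.0248). With processed signals the L. acidophilus value was 0.041 and did not pass (limma, adjusted p = 0.328). The B. clausii value was -0.081 with processed signals and with the deposited log ratios, and -0.21 with median centring. Its 10 replicate spots had an SD of 0.094 to 0.21 within an array.

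Rfc4 is a subunit of the clamp loader. Its log2 ratios were -0.013, -0.13, -0.36 and -0.35 at 1, 2, 4 and 6 h of L. acidophilus and -0.11, -0.48, -0.37 and -0.87 at those of B. clausii. All 8 were below 0, and the 6 h value of B. clausii was the lowest. The mean fell by 0.21 ± 0.062 after L. acidophilus (limma, adjusted p = 0.0235) and by 0.46 ± 0.062 after B. clausii (adjusted p = 0.000555). The first call ended in 9 of 24 alternatives and the second held in all 24. Its partner Rfc3, looked at after its values were seen, fell by 0.19 after L. acidophilus and by 0.30 after B. clausii.

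Pola1 is the catalytic subunit of DNA polymerase alpha, which with the primase Prim1 starts new strands. Its probe lies at chrX:90550189-90550248 (mm9). Its log2 level was 10.90, 10.76, 10.56 and 10.35 at 1, 2, 4 and 6 h of L. acidophilus, against 10.90, 10.705, 10.90 and 10.88 in untreated cells. On the B. clausii arrays it was 10.64, 10.46, 10.34 and 9.63 in treated cells, against 10.78, 10.74, 10.57 and 10.76 in untreated cells. Untreated levels stayed between 10.57 and 10.90, while the treated level at 6 h of B. clausii lay below every other. Ratios on the log2 scale were 0.0066, 0.054, -0.34 and -0.53 at the 4 times of L. acidophilus, and -0.14, -0.28, -0.23 and -1.13 at the same times of B. clausii. Pola1 fell after B. clausii with a mean of -0.45 ± 0.073 (limma, adjusted p = 0.00142), and after L. acidophilus it was -0.20 ± 0.073 and did not pass (adjusted p = 0.0506). The B. clausii call ended in 1 of 24 alternatives, with a highest adjusted p of 0.0606. Prim1 fell by 0.32 after B. clausii and was -0.15 after L. acidophilus without passing. With processed signals the log2 ratios of Prim1 lay between -0.13 and -0.10 on the B. clausii arrays, so the size of its fall depends on the scaling.

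Of the genes of nucleotide supply, Tyms fell after B. clausii. Rrm2, the small subunit of ribonucleotide reductase, had log2 ratios of -0.24, -0.23 and -0.31 at 1, 2 and 6 h of L. acidophilus, with the 4 h spot left out, and of -0.068, -0.44, -0.40 and -0.88 at 1, 2, 4 and 6 h of B. clausii. All 7 were below 0, and it was not tested because of the missing spot. Rrm1, the large subunit, had log2 ratios of -0.17, -0.14, 0.019 and -0.036 after L. acidophilus and of -0.41, -0.058, -0.019 and 0.22 after B. clausii. Neither mean passed. Tyms, thymidylate synthase, had log2 ratios of 0.12, -0.013, 0.070 and -0.10 after L. acidophilus and of -0.11, -0.15, -0.16 and -0.36 after B. clausii. It was below 0 on all 4 B. clausii arrays and fell there by 0.20 ± 0.040 (limma, adjusted p = 0.00391), in all 24 alternatives.

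Of the E-type cyclins, Ccne2 fell after B. clausii. Ccne2, cyclin E2, had log2 ratios of -0.054, -0.30, -0.13 and -0.067 at 1, 2, 4 and 6 h of L. acidophilus and of -0.084, -0.59, -0.31 and -0.77 at those of B. clausii. All 8 were below 0, and it fell after B. clausii by 0.44 ± 0.071 (limma, adjusted p = 0.00135), in all 24 alternatives. After L. acidophilus the mean was -0.14 ± 0.071 (adjusted p = 0.149). Its second probe gave 0.0075 after L. acidophilus and -0.34 after B. clausii. Ccne1, cyclin E1, had log2 ratios of 0.13, 0.20, -0.0050 and -0.28 after L. acidophilus and of 0.27, -0.025, -0.078 and -0.37 after B. clausii. Its means were near 0 and did not pass, but the ratio at 6 h was the lowest of each slide.

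E2f1, an activator of G1/S genes, had log2 ratios of 0.078, 0.21, 0.17 and 0.34 at 1, 2, 4 and 6 h of L. acidophilus and of -0.053, 0.17, 0.18 and 0.067 at those of B. clausii. Only the 1 h array of B. clausii was below 0. Its mean rose by 0.20 ± 0.046 after L. acidophilus (limma, adjusted p = 0.00824) and was 0.091 ± 0.046 after B. clausii (adjusted p = 0.138). The rise ended in 6 of 24 alternatives, and with median centring the value was 0.019. A dimmer second probe gave -0.12 and -0.075, so its direction is uncertain.

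With loess the G2/M genes were as mixed. Of 19, 4 rose and 4 fell after L. acidophilus, with a median log2 ratio of 0.020, and 2 rose and 3 fell after B. clausii, with a median of -0.030. These calls are 42.1% and 26.3% of the group, against 42.2% and 44.2% of all genes. With processed signals 1 was called higher and 3 lower after L. acidophilus, and 3 and 3 after B. clausii. With median centring the counts were 2 and 8, and 0 and 18. Shares of all genes for these settings are those given for the G1/S genes. The medians of the G1/S and G2/M genes on single arrays lay between -0.14 and 0.019 for G1/S genes and between -0.073 and 0.042 for G2/M genes.

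Among mitotic cyclins and their kinase, Ccnb2, cyclin B2, had log2 ratios of 0.33, 0.29, 0.23 and 0.21 at 1, 2, 4 and 6 h of L. acidophilus and of 0.097, 0.27, 0.21 and -0.0065 at those of B. clausii. It rose by 0.26 ± 0.045 after L. acidophilus (limma, adjusted p = 0.00247) and by 0.14 ± 0.045 after B. clausii (adjusted p = 0.0322). With processed signals the L. acidophilus value was 0.032 and did not pass (limma, adjusted p = 0.567). The B. clausii value was -0.060 with processed signals and with the deposited log ratios, and -0.20 with median centring. Ccnb1, cyclin B1, had log2 ratios of -0.085, 0.059, 0.074 and 0.032 after L. acidophilus and of -0.28, -0.043, 0.021 and -0.10 after B. clausii, and the values for Ccna2, cyclin A2, were 0.11, -0.020, -0.11 and 0.12 after L. acidophilus, and -0.46, -0.0087, -0.11 and 0.21 after B. clausii. No mean of either cyclin passed, and the 1 h value of B. clausii was the lowest of both genes.

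Cdk1 is the kinase that drives entry into mitosis. Its probe lies within chr10:68805423-68807832 (mm9). Its log2 level was 11.47, 11.46, 11.57 and 12.07 at 1, 2, 4 and 6 h of L. acidophilus, against 11.72, 11.81, 11.77 and 11.78 in untreated cells. On the B. clausii arrays it was 11.30, 11.61, 11.69 and 12.09 in treated cells, against 11.95, 11.91, 11.84 and 11.95 in untreated cells. Treated cells lay below untreated cells at 1, 2 and 4 h and above them at 6 h on both slides. The mean log2 ratio was -0.24 ± 0.059 after B. clausii (limma, adjusted p = 0.0107), a fall that ended in 6 of 24 alternatives, and -0.13 ± 0.059 after L. acidophilus (adjusted p = 0.11).

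Kinases and the ubiquitin ligase of mitosis followed. Plk1, polo-like kinase 1, had log2 ratios of 0.014, -0.39, -0.27 and -0.13 at 1, 2, 4 and 6 h of L. acidophilus and of -0.072, -0.26, -0.25 and 0.24 at those of B. clausii. It was lowest at 2 h on both slides, and its mean fell by 0.19 ± 0.056 after L. acidophilus (limma, adjusted p = 0.0223), a call that ended in 9 of 24 alternatives. Aurka, aurora kinase A, had -0.011, -0.45, -0.13 and 0.029 after L. acidophilus, and -0.073, -0.31, -0.086 and 0.19 after B. clausii. It fell by 0.14 ± 0.043 after L. acidophilus (limma, adjusted p = 0.0295), a call that ended in 12 of 24. Aurkb, aurora kinase B of the chromosomal passenger complex, fell by 0.23 after B. clausii. Its partner Birc5 (survivin) rose by 0.14 after L. acidophilus.

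Ube2c is the ubiquitin-conjugating enzyme of the anaphase-promoting complex. Log2 ratios were -0.37, -0.33, -0.47 and -0.38 at 1, 2, 4 and 6 h of L. acidophilus and -0.090, -0.11, -0.18 and -0.030 at those of B. clausii. All 8 were below 0, and the 4 values of L. acidophilus lay below the 4 of B. clausii. It fell by 0.39 ± 0.040 after L. acidophilus (limma, adjusted p = 0.000271), in all 24 alternatives, and was -0.10 ± 0.040 after B. clausii (adjusted p = 0.0616). Cdc20, an activator of the same complex, had log2 ratios of 0.18, 0.011, 0.11 and -0.13 after L. acidophilus, and of 0.29, 0.067, 0.14 and -0.22 after B. clausii, below 0 at 6 h only on both slides, and neither mean passed.

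Mki67 encodes the Ki-67 protein that coats mitotic chromosomes and is used as a marker of dividing cells. Its log2 level was 14.35, 14.41, 14.34 and 13.98 at 1, 2, 4 and 6 h of L. acidophilus, against 13.95, 14.02, 14.04 and 14.04 in untreated cells. On the B. clausii arrays it was 14.81, 14.38, 14.19 and 14.19 in treated cells, against 14.04, 14.03, 13.89 and 13.99 in untreated cells. Treated cells were above untreated cells on 7 arrays and below them at 6 h of L. acidophilus. The mean rose by 0.25 ± 0.056 after L. acidophilus (limma, adjusted p = 0.00717) and by 0.41 ± 0.056 after B. clausii (adjusted p = 0.000608). With median centring the B. clausii value was 0.025 (adjusted p = 0.785). A second probe gave mean log2 ratios of 0.11 and 0.31.

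Top2a, DNA topoisomerase II alpha, had log2 ratios of -0.27, -0.064, -0.048 and 0.031 at 1, 2, 4 and 6 h of L. acidophilus and of -0.46, -0.16, -0.33 and -0.11 at those of B. clausii. It was below 0 on all 4 B. clausii arrays and fell there by 0.26 ± 0.041 (limma, adjusted p = 0.00113), in all 24 alternatives. Among kinetochore and spindle genes, Cenpe, a kinetochore motor, rose by 0.18 ± 0.049 after L. acidophilus (limma, adjusted p = 0.019), a call that ended in 13 of 24 alternatives, and the motor Kif11 fell by 0.13. Tpx2, Bub1, Bub1b, Cenpa and Cdc25b passed with neither bacterium, with means between -0.052 and 0.11. A dimmer second probe of Bub1, a spindle checkpoint kinase, gave 0.25 after L. acidophilus and 0.38 after B. clausii, in place of 0.043 and -0.052, and a late difference of 0.027 in place of -0.24.

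The responses to the bacteria were then set against each other. In the comparison of L. acidophilus with B. clausii 0 of 43 genes passed (limma, adjusted p under 0.05), against 0.642% of all genes, and 10 of the 43 had an unadjusted p under 0.05, which is 23.3%, against 22.7% of all genes. In simulated data with 200 of 14805 genes changed, this comparison recovered 73.5% of differences of 0.5 on the log2 scale and 0% of differences of 0.25. Recovery depends on how many genes change, so in the real data it may differ from these values. The smallest p-values belonged to Ccnd2, with a difference of 0.28 ± 0.056 (limma, adjusted p = 0.0619; 95% interval 0.16 to 0.41), and Ube2c, with -0.28 ± 0.056 (adjusted p = 0.0619; -0.41 to -0.16). Next in order were Tyms at 0.22 ± 0.056 (limma, adjusted p = 0.101), Top2a at 0.18 ± 0.058 (adjusted p = 0.139) and Ccne2 at 0.30 ± 0.10 (adjusted p = 0.141). For Gins2 the interval of the difference ran from -0.18 to 0.13. With median centring 27 genes passed, all higher with L. acidophilus. That setting put the median of all genes at -0.078 after L. acidophilus and -0.25 after B. clausii, so this count is not a result about these genes.

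The late times were next compared with the early times. Between the late times (4 and 6 h) and the early times (1 and 2 h), 5 of the 43 genes rose and 8 fell with the bacteria combined (limma, adjusted p under 0.05), which is 30.2%, against 24.6% of all genes. That share lies near the background, so it is not a result about these genes. The risers were Cdk1, Mcm5, Mcm4, Cdkn1b and Aurka, and the genes that fell were Pola1, Cenpe, Ccne1, Tpx2, Rfc4, Mki67, Bub1 and Ccnd1. Both lists hold G1/S and G2/M genes, with 2 G1/S genes higher and 3 lower, and 2 G2/M genes higher and 4 lower. Median differences were -0.042 for G1/S genes and 0.077 for G2/M genes, against 0.0022 over all genes. With processed signals, 0 were called higher and 1 lower, against 8.70% of all genes called, and with median centring 11 were called higher and 0 lower, against 19.6% and 2.58% of all genes. Without the 2 h array of L. acidophilus 3 genes passed, without its 4 h array 5, and without the 1 h, 2 h or 4 h array of B. clausii 7, 8 and 7. Shares of all genes are not given for these fits.

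**Figure D3:**
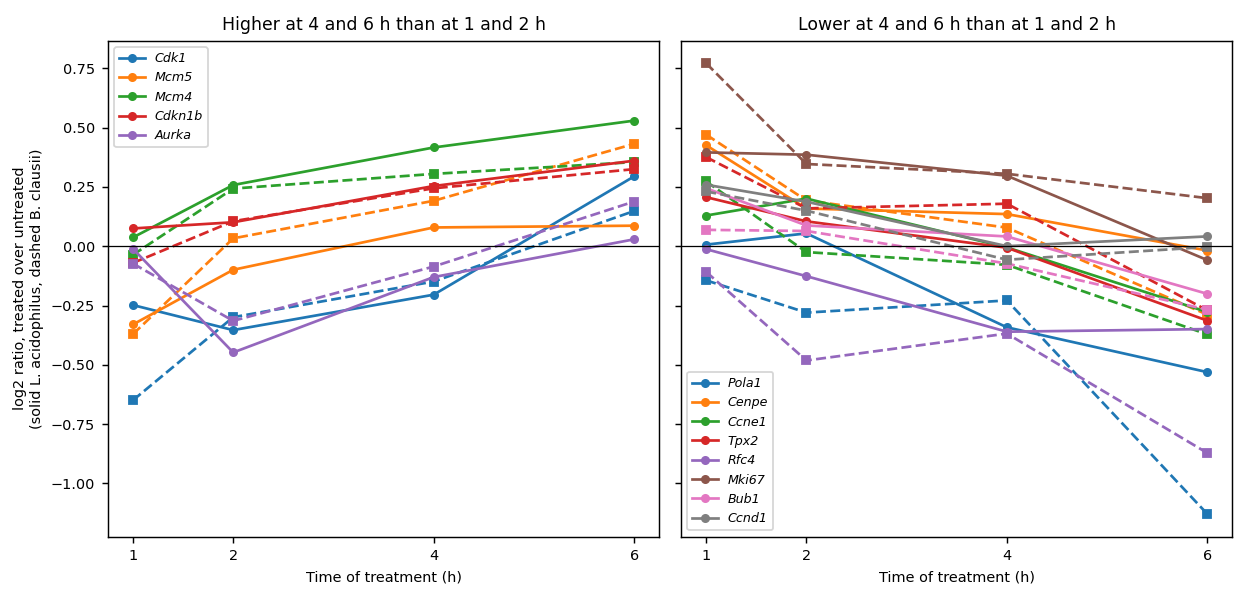
Log2 ratio of treated over untreated cells against time (h) for the 5 genes called higher (left) and the 8 called lower (right) at 4 and 6 h than at 1 and 2 h, solid with circles for L. acidophilus and dashed with squares for B. clausii. Cdk1 crosses 0 between 4 and 6 h with both bacteria, and Pola1 reaches -1.13 at 6 h of B. clausii.

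Cdk1 was 0.41 ± 0.083 higher at the late times (limma, adjusted p = 0.00876) and Mcm5 0.39 ± 0.071 (adjusted p = 0.0058). Mcm4 was higher by 0.28 ± 0.057 (limma, adjusted p = 0.00966), Cdkn1b by 0.24 ± 0.057 (adjusted p = 0.0159) and Aurka by 0.21 ± 0.061 (adjusted p = 0.035). These are differences of log2 ratios, and Cdk1 and Mcm5 lost their call with processed signals and with the deposited log ratios, Cdk1 also without the 2 h array of L. acidophilus. In the other direction, the difference was -0.47 ± 0.10 for Pola1 (limma, adjusted p = 0.0123), -0.34 ± 0.069 for Cenpe (adjusted p = 0.00913) and -0.33 ± 0.070 for Ccne1 (adjusted p = 0.0107). It was -0.31 ± 0.058 for Tpx2 (limma, adjusted p = 0.00606), -0.31 ± 0.087 for Rfc4 (adjusted p = 0.034) and -0.29 ± 0.079 for Mki67 (adjusted p = 0.0293). Of the 19 alternatives, the call ended in 4 for Mcm4, Cenpe and Tpx2, in 7 for Pola1 and Ccne1, in 9 for Cdkn1b and in 11 for Aurka, Rfc4, Mki67 and Ccnd1.

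Tpx2, which activates aurora kinase A on the spindle, fell between early and late times. Its log2 ratios were 0.21, 0.10, -0.0063 and -0.31 at 1, 2, 4 and 6 h of L. acidophilus and 0.38, 0.16, 0.18 and -0.27 at those of B. clausii. Cenpe had log2 ratios of 0.43, 0.16, 0.14 and -0.018 after L. acidophilus, and of 0.47, 0.19, 0.078 and -0.29 after B. clausii. Both genes were highest at 1 h and lowest at 6 h on both slides. Other probes did not always follow: a second Cenpe probe gave a late difference of 0.061, against -0.34 for the one used, a second Ccne2 probe 0.38 against -0.064, and a dimmer Ccnb1 probe 0.61 against 0.094. The second probes of Ccne1 and Mki67 gave -0.33 and -0.21. Of the 14 members with more than 1 kept probe, 7 had a probe of the opposite sign in this comparison, and 6 did in each of the mean responses.

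Whether the change over time differed between the bacteria could be tested only coarsely. In that comparison 0 of 43 genes passed (limma, adjusted p under 0.05), against 0% of all genes, and 0 had an unadjusted p under 0.05, against 1.18% of all genes. In simulated data it recovered 0% of differences of 0.5 and 83% of differences of 1 on the log2 scale. The simulated noise came from the fit with time as a term, which this comparison does not use, so recovery in the real data may be lower. The median standard error of the 43 genes in this comparison was 0.19. The smallest p-value was that of Bub1b, of the same checkpoint, whose change over time with L. acidophilus minus that with B. clausii was -0.30 ± 0.17 on the log2 scale (limma, adjusted p = 1). Next were Ccna2 at -0.33 ± 0.24 and Ccne2 at 0.28 ± 0.27 (limma, adjusted p = 1 for both). Bub1b had log2 ratios of 0.042, 0.065, 0.021 and 0.17 at the 4 times of L. acidophilus, then -0.22, -0.0018, 0.15 and 0.31 at those of B. clausii.

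**Figure D4:**
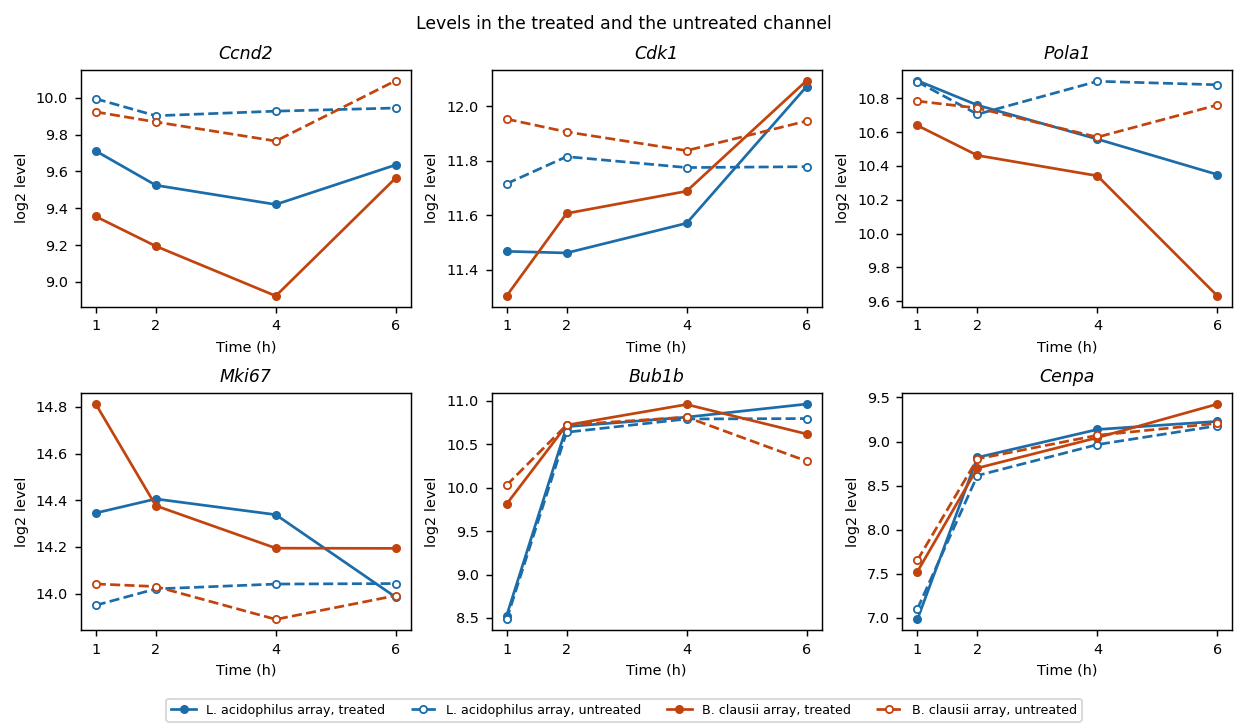
Log2 level (vertical axis, after quantile normalization of brightness between arrays) against time (h) for 6 genes, in treated (solid, filled) and untreated (dashed, open) cells on the L. acidophilus (blue) and B. clausii (red) arrays. Ccnd2 is lower in treated cells at every time, and Bub1b and Cenpa are lowest at 1 h in treated and untreated cells alike.

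Levels in untreated cells also varied between arrays. Over the 8 arrays the untreated log2 level of a gene of the set had a median range of 0.29, against 0.36 over all genes, and it exceeded 1 for 3 of 43 genes (6.98%), against 8.4% of all genes. These were Bub1b, Ccne2 and Cenpa, named after their values were seen. The untreated level of Ccne2 was 9.70 at 1 h and 8.56 at 6 h on the L. acidophilus arrays, and 9.26 and 8.39 on the B. clausii arrays. Its lowest ratio, -0.77 at 6 h of B. clausii, thus came from the array with its lowest untreated level. For Bub1b, treated levels were 8.53, 10.702, 10.81 and 10.96 at 1, 2, 4 and 6 h of L. acidophilus, against 8.48, 10.64, 10.79 and 10.80 in untreated cells. On the B. clausii arrays Bub1b had 9.81, 10.72, 10.96 and 10.62 in treated cells, against 10.03, 10.72, 10.81 and 10.31 in untreated cells. For Cenpa, the histone variant of centromeres, treated levels were 6.98, 8.82, 9.14 and 9.23 at those times, against 7.10, 8.61, 8.97 and 9.18 in untreated cells. On the B. clausii arrays Cenpa had 7.53, 8.70, 9.04 and 9.42 in treated cells, against 7.66, 8.80, 9.07 and 9.21 in untreated cells. Bub1b and Cenpa were lowest at 1 h in both channels, and their ratios stayed between -0.22 and 0.31. Time and position on the slide cannot be told apart, and 1 array per time gives these levels no error.

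Promoter sequences were searched for letters known from genes of each phase. Of the 44 genes, 36 had an entry among RefSeq promoters of the GRCm38.p6 build, which run from 250 bases before to 50 after the start. They were searched on both strands for E2F-type letters (TTCCCGC, or else TTGGCGC, or else TTCGCGC, or else TTGCCGC), the CHR letters TTTGAA and the letters CCAAT. A gene was counted if any of its promoters held the letters. E2F-type letters stood in 12 of 17 G1/S genes (70.6%), in 3 of 16 G2/M genes (18.8%) and in 10.9% of all 27025 genes with an entry. CHR letters stood in 1 of 17 (5.88%), 11 of 16 (68.8%) and 20.2% of all. CCAAT stood in 11 of 17 (64.7%), 15 of 16 (93.8%) and 41.1% of all. Of 32 E2F-type matches in these promoters, 4 overlapped a CCAAT match, and a match is a description of letters, not a binding site.

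The promoters of 4 genes are shown because pairs with the same letters moved in opposite directions over time, a choice made after their values were seen. The 150 bases before the start are given 5′ to 3′ on the gene's strand, with matches on either strand in capitals. Mcm5 (chr8:75109359-75109508, plus strand) rose late and Pola1 (chrX:93632156-93632305, minus strand) fell late, and both hold E2F-type and CCAAT letters. Cdk1 (chr10:69352913-69353062, minus strand) rose late and Mki67 (chr7:135716380-135716529, minus strand) fell late, and both hold CHR, CCAAT and E2F-type letters.
Mcm5: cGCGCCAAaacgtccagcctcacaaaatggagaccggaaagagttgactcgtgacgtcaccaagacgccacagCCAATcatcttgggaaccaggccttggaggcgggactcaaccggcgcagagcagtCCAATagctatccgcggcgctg
Pola1: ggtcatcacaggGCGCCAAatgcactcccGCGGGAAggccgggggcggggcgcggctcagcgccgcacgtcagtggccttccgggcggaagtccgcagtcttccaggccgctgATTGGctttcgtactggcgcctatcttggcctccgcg
Cdk1: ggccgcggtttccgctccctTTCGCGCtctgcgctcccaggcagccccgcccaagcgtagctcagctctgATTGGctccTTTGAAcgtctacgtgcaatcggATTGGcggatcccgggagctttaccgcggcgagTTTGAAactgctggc
Mki67: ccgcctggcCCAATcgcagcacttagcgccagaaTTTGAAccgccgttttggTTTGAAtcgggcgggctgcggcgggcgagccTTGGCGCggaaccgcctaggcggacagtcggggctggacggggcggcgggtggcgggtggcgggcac

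**Figure D5:**
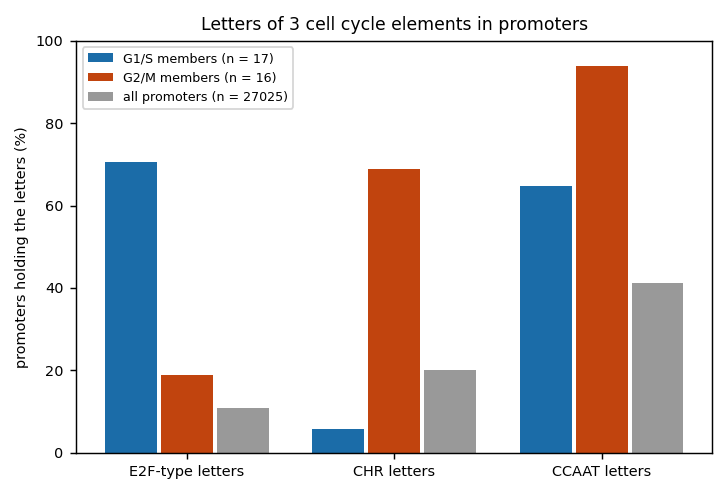
Share of genes (%) with a promoter that holds the E2F-type, CHR and CCAAT letters, for 17 G1/S genes (blue), 16 G2/M genes (red) and all 27025 genes with an entry (grey, labelled all promoters). E2F-type letters stand at 70.6% in the G1/S genes and CHR letters at 68.8% in the G2/M genes.

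Letters were also counted by call. Of the members with a promoter entry, E2F-type letters stood in 4 of 10 that rose and 2 of 6 that fell after L. acidophilus, and in 1 of 6 that rose and 5 of 7 that fell after B. clausii. CHR letters stood in 2 of 10 that rose and 4 of 6 that fell after L. acidophilus, and in 2 of 6 and 2 of 7 after B. clausii. Over time, E2F-type letters stood in 2 of 4 that rose and 3 of 6 that fell. Among all genes with an entry, E2F-type letters stood in 10.9% and CHR letters in 20.2%. G1/S genes made up 7 of the 11 members that fell after B. clausii. E2F-type letters stood in 70.6% of G1/S genes with an entry. The counts by call thus cannot be told apart from the make-up of each list by phase. With median centring 0 members were called higher after B. clausii. The counts of letters are small and were not tested.

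Other genes of the same pathways gave the setting. Of 38 other genes of replication origins and forks, 5 rose and 12 fell after L. acidophilus, and 3 rose and 19 fell after B. clausii, with medians of -0.039 and -0.16 on the log2 scale. Among all genes, 23.7% were called higher and 18.5% lower after L. acidophilus, and 23.1% and 21.1% after B. clausii, and at the late times 12.2% were called higher and 12.4% lower. These shares are the background for each list that follows. With processed signals the shares of all genes were 17.8% and 14.3%, 24.6% and 18.9%, and 4.48% and 4.23% in the same order, and with median centring 9.04% and 30.4%, 5.68% and 58.5%, and 19.6% and 2.58%. With processed signals the counts were 2 and 10 after L. acidophilus, and 2 and 17 after B. clausii, and with median centring 1 and 22, and 0 and 37. Rfc1, the large subunit of the clamp loader, fell after both (-0.40 ± 0.043 and -0.39 ± 0.043; limma, adjusted p = 0.000328 and 0.000188). Gmnn, geminin, which blocks Cdt1, rose after both (0.28 ± 0.041 and 0.16 ± 0.041; limma, adjusted p = 0.00128 and 0.0131).

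Of 24 measured genes among 28 of E2F, Rb and the G1 kinases, 3 rose and 12 fell after L. acidophilus, and 2 rose and 11 fell after B. clausii. With median centring these counts were 2 and 16, and 0 and 22. Between early and late times 11 rose and 1 fell, against 12.2% higher and 12.4% lower among all genes, or 5 and 1 with processed signals, against 4.48% and 4.23%, and the median difference was 0.16, against 0.0022 over all genes. Myc, a driver of growth and of cyclin D genes, rose by 0.35 ± 0.054 after L. acidophilus and by 0.48 ± 0.054 after B. clausii (limma, adjusted p = 0.00149 and 0.000248). Cdk6, a partner of the D-type cyclins, rose by 0.39 ± 0.041 and 0.39 ± 0.041 (limma, adjusted p = 0.000318 and 0.00017). Cdk7, the kinase that activates other Cdks, had -0.42 ± 0.042 and -0.62 ± 0.042, and Lin9, a subunit of the DREAM and B-Myb complexes, -0.38 ± 0.040 and -0.61 ± 0.040. All 4 values were falls (limma, adjusted p between 2.29e-05 and 0.000304). Cdk4 was 0.48 ± 0.088 higher at the late times (limma, adjusted p = 0.00585).

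Of 50 measured genes among 51 others of mitosis, 7 rose and 16 fell after L. acidophilus, 9 rose and 17 fell after B. clausii, and 14 rose and 4 fell at the late times, against 42.2%, 44.2% and 24.6% of all genes called. With processed signals the late counts were 3 and 1. With median centring the counts were 1 and 27 after L. acidophilus, 0 and 48 after B. clausii, and 20 and 0 at the late times. Foxm1, an activator of G2/M genes, was 0.50 ± 0.054 higher late (limma, adjusted p = 0.000668), and Ccnf, cyclin F, 0.50 ± 0.064 (adjusted p = 0.0014). Cks2, a Cdk subunit, rose by 0.52 ± 0.049 after L. acidophilus and by 0.31 ± 0.049 after B. clausii (limma, adjusted p = 0.000203 and 0.00119). The largest falls in this list were Prc1 at -0.41 ± 0.050 after L. acidophilus (limma, adjusted p = 0.000512) and Cenph at -0.54 ± 0.048 after B. clausii (adjusted p = 7.6e-05). At the late times the largest fall was Ncapg at -0.40 ± 0.061 (limma, adjusted p = 0.00258). Of 26 measured genes among 27 of the DNA damage response, checkpoints and p53 targets, 11 rose and 9 fell after L. acidophilus, and 8 rose and 9 fell after B. clausii, against the same shares. With median centring these counts were 1 and 12, and 1 and 20. Trp53 itself fell by 0.50 ± 0.044 after B. clausii (limma, adjusted p = 6.88e-05), and Gadd45g, a stress-induced gene, rose by 0.30 ± 0.059 and 0.56 ± 0.059 (limma, adjusted p = 0.00477 and 0.000176). Sesn1 fell by 0.56 ± 0.046 and 0.55 ± 0.046 (limma, adjusted p = 0.000124 and 5.56e-05).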

How the data were processed

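Treated and untreated RNA of RAW264.7 cells was compared on 8 Agilent arrays. The deposited files hold spot intensity and background intensity per channel and a log10 ratio of red over green, made by Feature Extraction (10.7.3.1 per the file headers, 10.5.1.1 per the submitters' processing notes). The deposited log10 ratios were used as an alternative only. Here, local backgrounds over 3 times the array median that the software flagged as outliers were set to the median, a step chosen after the files were seen. Intensities were corrected with normexp (offset 50) and normalized by loess within arrays, and by Aquantile for levels of single channels. Control spots and flagged spots were left out. Probes well above background in either channel on at least 2 arrays were kept, spots of a probe were averaged, and the brightest probe stood for its gene.

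limma 3.58.1 in R 4.3.3 fitted a mean for each bacterium with time as a term (3 residual degrees of freedom), and the difference in time course with 4. Calls have a Benjamini-Hochberg adjusted p under 0.05 over all 14805 genes. A value after ± is the standard error. The steps were tested on simulated data. The labels do not say that pools were repeated, so p-values measure only the spread between arrays left after the terms of the model. Changes over time that both slides share are not in the ± values of the means, and the number of arrays limits the precision. Members, lists and the rule for named genes were chosen with earlier results of these data known. That rule takes 32 members. The other 12 were named after their values were seen. Among the other genes, the rule takes the called genes with the largest changes per list, and the text names only part of them. The alternatives cover background, centring, filter, probe choice, model, threshold and arrays left out. Sequences come from RefSeq (GRCm38.p6).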

Additional observations from a re-analysis of the deposited data

How the results depend on the processing

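Treated and untreated RNA share each array, and time, which both bacteria share, is a term of the fit. The labels carry no replicate numbers, so no pairing beyond these was possible. The number of members called after L. acidophilus, 20 as reported, was 12 with processed signals, with offset 0, with local backgrounds as deposited and with the deposited log ratios, 7 with no time term, and 13 and 11 without both arrays of 2 h and of 4 h. Leaving out both arrays of a time was chosen after seeing the data. The number called after B. clausii, 18 as reported, was 40 with median centring and 10 with no time term. These are totals, which need not hold the same genes. Between the bacteria, 2 passed with no background correction, with the filter on both channels, with the mean over probes and at an adjusted p under 0.1, and 27 with median centring. Over time, 1 passed with processed signals and with the deposited log ratios, 6 with offset 0 and 5 with local backgrounds as deposited. Leaving out 1 array at a time gave 9 to 23 called after L. acidophilus, 14 to 21 after B. clausii, 0 to 0 between the bacteria, 3 to 19 over time and 0 to 0 for the difference in time course. Shares of all genes are not given beside these counts, so they are not a result about these genes. The cause of these shifts was not tested.

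The median of the G2/M genes after B. clausii was 0.017 with processed signals and 0.017 with the deposited log ratios, and over time -0.015 with both. With median centring the medians of G1/S and G2/M genes were -0.13 and -0.11 after L. acidophilus, -0.49 and -0.39 after B. clausii, 0.43 and 0.31 between the bacteria, 0.14 and 0.23 over time and -0.26 and -0.32 for the difference in time course. The G1/S median after B. clausii was -0.13 without both arrays of 1 h. Leaving out 1 array at a time, G1/S medians ran from -0.079 to 0.0013 after L. acidophilus, -0.11 to -0.049 after B. clausii, 0.065 to 0.13 between the bacteria, -0.048 to 0.019 over time and -0.037 to 0.16 for the difference in time course. G2/M medians ran from -0.0052 to 0.037, -0.061 to -0.015, -0.018 to 0.067, 0.011 to 0.11 and -0.11 to -0.018 in the same order. At 1.5-fold, 7 members passed on some array, against 1 at 2-fold. On single arrays 0% to 6.98% of members passed 1.5-fold, against 1.34% to 6.17% of all genes.

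The turned signs listed here are those of members that the rule for named genes takes. Signs turned for Pcna and Ccnb2 after B. clausii with processed signals and with the deposited log ratios (-0.081 and -0.060). With median centring they turned for Ccnd1 after L. acidophilus (-0.045), for Cdc20 between the bacteria (0.31), and after B. clausii for Mcm4 (-0.14), Mcm5 (-0.31), Pcna (-0.21), E2f1 (-0.35), Ccnd1 (-0.38), Ccnd3 (-0.33), Cdkn1a (-0.24), Cdkn1b (-0.043), Ccnb2 (-0.20), Cdc20 (-0.30), Bub1b (-0.39), Cenpe (-0.29) and Tpx2 (-0.32). Over the named members and alternatives, 3097 values kept their direction and side of the threshold, 209 lost the call, 116 gained one and 19 turned.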
